A study of Mus musculus with 12 samples.

Results

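RNA sequencing libraries of a freshly dissociated adult brain suspension, labelled P56-NPC, were compared with libraries of cultured cortical astrocytes, labelled AST, with 3 libraries a group. Genes entered the comparison when their mean FPKM (fragments per kilobase of gene length, scaled to library size) reached 1 in either group, which kept 15146 of the 55862 genes in the table (27.11%). Of these, 11218 reached that mean in both groups, 2644 did so in P56-NPC alone and 1284 in AST alone. The P56-NPC cells came from the subependymal zone of untreated adult C57BL/6 mice (C57BL/6J in the study's methods) at postnatal day 56. The tissue was digested with enzymes, strained, spun down and resuspended in medium with B27, and no sorting step was described. The AST cells came from the cerebral cortex of newborn C57BL/6 mice with the meninges removed, were grown as a passaged monolayer in medium with fetal bovine serum, and were taken before any sphere culture (incubation day 0). Age, brain region, culture and serum therefore all differ between the groups and cannot be told apart. The series also holds 3 libraries from sphere-cultured astrocytes, not compared here, and 3 libraries labelled P0-NPC from the hippocampus of newborn C57BL/6 mice (again C57BL/6J in the methods, postnatal day 0), which are used below as a second fresh suspension. The labels call the brain suspensions positive controls and the monolayer astrocytes the negative control. Nothing in the labels says whether the libraries of a group came from separate animals or cultures, or from pooled mice, so p-values measure only the spread between these libraries.

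The subependymal zone lines the lateral ventricle beside the striatum. Its stem cells resemble astrocytes and give rise, through dividing intermediate cells, to chains of neuroblasts that travel toward the olfactory bulb, beneath a ciliated ependymal layer and next to myelinated tracts, choroid plexus and striatal neurons. Astrocytes kept on plastic in serum divide, flatten, lay down matrix and build contractile fibres, and hold lower levels of many transporters typical of astrocytes in the adult brain. In bulk libraries such as these, fewer cells of a type and less RNA per cell cannot be told apart.

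Checked against markers, the P56-NPC libraries held transcripts of many cell types beside those of neural precursors, and the label is used here only as a name. The highest nuclear transcripts after mitochondrial ones were Mbp, Cpe, Apoe, Cst3 and Fth1, whereas Igfbp2, Tmsb4x, Lgals1 and S100a11 were among those of every AST library. The summed FPKM of 15 myelin and mature oligodendrocyte genes lay between 12903 and 14841 in P56-NPC and between 26.6 and 29.0 in AST. The summed FPKM of 16 neuroblast genes was 542 to 599 in P56-NPC, 579 to 624 in AST and 2599 to 3156 in P0-NPC. Abundant members such as the tubulin Tubb2b weigh most in this sum. By member, in the test given below, 9 of the 16 were higher in P56-NPC than in AST and 2 lower, against 39.1% and 39.8% of all tested genes. In AST, Gfap and Aqp4, defining markers of astrocytes, were both present, at 31.1, 27.2 and 31.3 FPKM and 32.7, 27.5 and 32.3 FPKM. They are picked from a list of 19 mature astrocyte genes, of which others, such as Slc1a2 and Gjb6, were low or nearly absent in AST. The 19 genes summed to 368 to 403 FPKM in AST and 6549 to 7354 in P56-NPC. AST also held transcripts of other cell types, with 18 microglia genes summing to 387 to 462 FPKM, against 1259 to 1346 in P56-NPC.

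The P56-NPC libraries held 21380187 to 22285109 fragments counted to genes and the AST libraries 17077780 to 21543424, so a count of 3 fragments in a gene of 1 kb stood at 0.148 to 0.187 FPKM. Mitochondrial genes took 16.5% to 17.6% of fragments in P56-NPC and 2.94% to 4.70% in AST, a difference of 13.45 percentage points, with no overlap between the groups (exact two-sided permutation test, p = 0.1, the smallest that 3 against 3 libraries allow). AST replicate 2 stood apart from the other two AST libraries, which lay close to each other. As inferred from the values, the authors' FPKM carry a scaling beyond library size. With library size alone the median log2 fold change of all tested genes moved from -0.03 to -0.34, and the share of called genes that were higher in P56-NPC moved from 49.55% to 37.71%, so small differences below are relative to the authors' scaling.

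Of the 15146 genes, 5924 were higher in P56-NPC (39.1% of those tested) and 6032 were lower (39.8%), together 11956 or 78.9%, by limma on log2(FPKM + 1) at a Benjamini-Hochberg adjusted p under 0.05. For the gene lists below, these shares of higher and lower genes are the background. All log2 fold changes below are on that log2(FPKM + 1) scale, which understates the change of genes with low values, and "higher" and "lower" are used of P56-NPC relative to AST for genes past this threshold. With a log2 fold change beyond 1 required as well, 3341 genes were higher (22.1%) and 2754 lower (18.2%), together 6095 or 40.2%. The 3 P56-NPC values did not overlap the 3 AST values in 12408 genes (81.92%). A log2 fold change above 5 was reached by 118 genes, and 63 fell by more than 5. The middle of the distribution was narrower, with quartiles at -0.74 and 0.87. Among the tested genes, 223 had no fragment in any AST library, of which 73 were protein-coding, and 67 had none in any P56-NPC library, of which 28 were protein-coding.

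**Figure D1:**
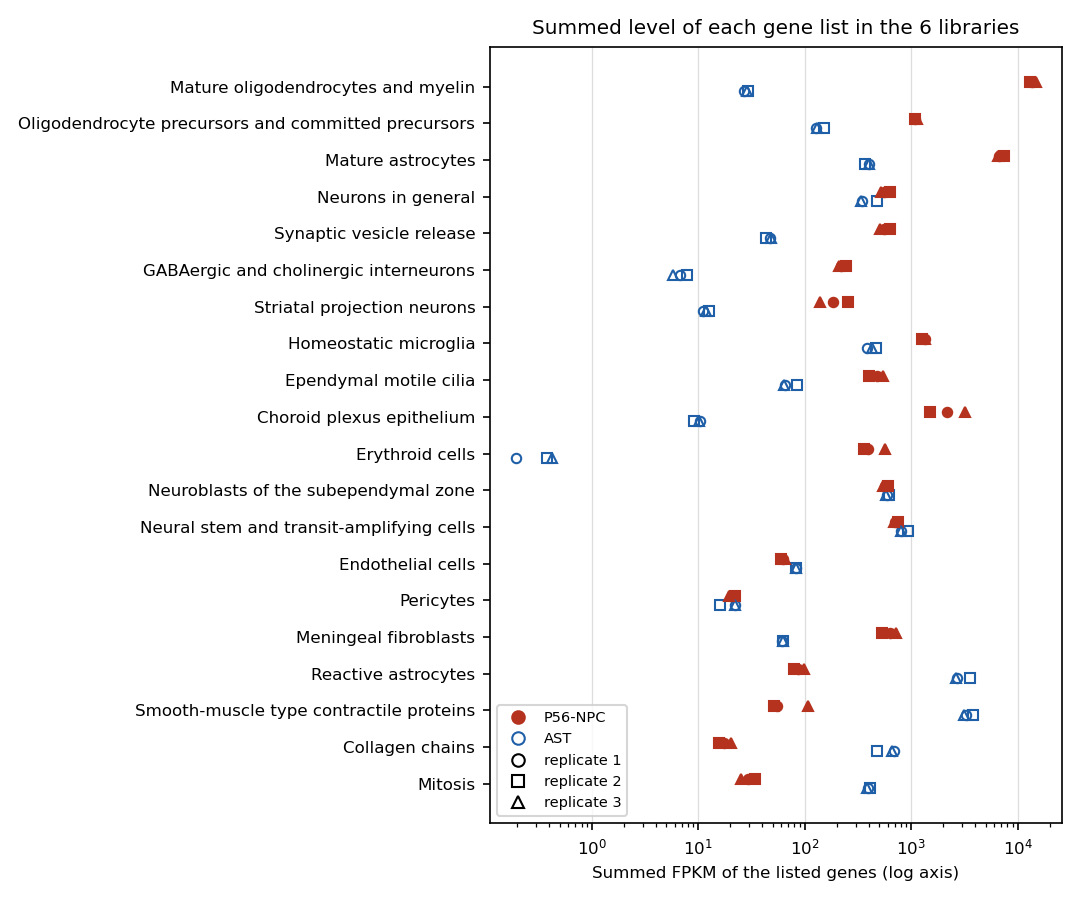
Summed FPKM (log axis) of the members of each gene list in each library, 1 point a library, with P56-NPC filled, AST open and the symbol giving the replicate. The P56-NPC libraries sit far above AST for myelin, with sums of 12903 to 14841 against 26.6 to 29.0, and far below for contractile proteins, with 51.2 to 106 against 3157 to 3784.

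The protein-coding genes with the largest differences in favour of P56-NPC were led by genes of myelin. Mbp, which encodes a structural protein of compact myelin, stood at 4994, 5159 and 5659.7 FPKM in the 3 P56-NPC libraries and at 0.282, 0.291 and 0.312 in AST. Its log2 fold change was 11.99 (SE 0.08, adjusted p = 1.9e-09). Mobp, another basic protein of myelin (ENSMUSG00000032517, chr9:120149707-120181484, build GRCm38), stood at 2419.6, 2394 and 2704 FPKM in P56-NPC with 0 fragments in all AST libraries, at least 105400-fold higher against a floor of 3 fragments in each AST library. No library of either group came near the other for these genes.

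Cldn11, the claudin of myelin tight junctions, stood at 775, 671 and 809.8 FPKM against 0.191, 0.132 and 0.115, a log2 fold change of 9.36. Bcas1 marks oligodendrocytes that are beginning to myelinate, and its log2 fold change was 9.02, from 0.0474, 0.0784 and 0.0856 FPKM in AST to 529.8, 554 and 581 in P56-NPC. The log2 fold changes of Mal and Mog, both myelin membrane proteins, were 8.40 and 8.07, the latter resting on 1 fragment in AST.

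Other leading genes belonged to neurons, choroid plexus and astrocytes. Kif5a, a kinesin of neuronal transport (ENSMUSG00000074657, chr10:127225696-127263348), stood at 1328, 1641 and 1189 FPKM against 0.7, 0.896 and 0.824, a log2 fold change of 9.57. Ddn, a protein of dendrites, had a log2 fold change of 8.28. Slc6a11, the GABA transporter GAT3 of astrocytes, had one of 8.23, and Fam107a, an actin-associated protein abundant in brain, had one of 8.13. Ttr, the thyroxine carrier made by choroid plexus, stood at 2077, 1452 and 3119.7 FPKM against 2.41, 2.37 and 2.95, with a log2 fold change of 9.21, and it varied more among the P56-NPC libraries than the genes named before it.

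Thbs1, Timp1 and Tnc had the largest differences in favour of AST among the genes named by size. Thbs1, the matrix glycoprotein thrombospondin 1 (ENSMUSG00000040152, chr2:118111876-118127133), stood at 0.398, 0.39 and 0.64 FPKM in P56-NPC and 773, 604 and 792 in AST, a log2 fold change of -8.93 (SE 0.13, adjusted p = 1.1e-08). Timp1, an inhibitor of metalloproteinases, stood at 0.195, 0.14 and 0.273 FPKM against 321, 423 and 309, a log2 fold change of -8.18. Tnc, the matrix protein tenascin C, stood at 0.259, 0.305 and 0.383 FPKM against 357, 319 and 366, a log2 fold change of -8.05. All 3 P56-NPC libraries were under 1 FPKM for each of these genes.

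Acta2, smooth-muscle actin, stood at 5.22, 3.92 and 14.1 FPKM against 1742, 2113 and 1689.8, a log2 fold change of -7.90, and P56-NPC replicate 3 was the highest of its group. The log2 fold changes of Igfbp3, which binds insulin-like growth factors, of fibronectin (Fn1) and of Ccn2, a matricellular protein induced by stretch and TGF-beta, were -7.70, -7.66 and -7.50. Those of the lectin Lgals1 and of the collagen-binding proteoglycan Fmod were -7.27 and -7.12. Spp1, osteopontin, had a log2 fold change of -6.86. Crct1 had 0 fragments in all P56-NPC libraries and 109, 147 and 109.5 FPKM in AST, at least 534-fold lower against a floor of 3 fragments in each P56-NPC library.

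**Figure D2:**
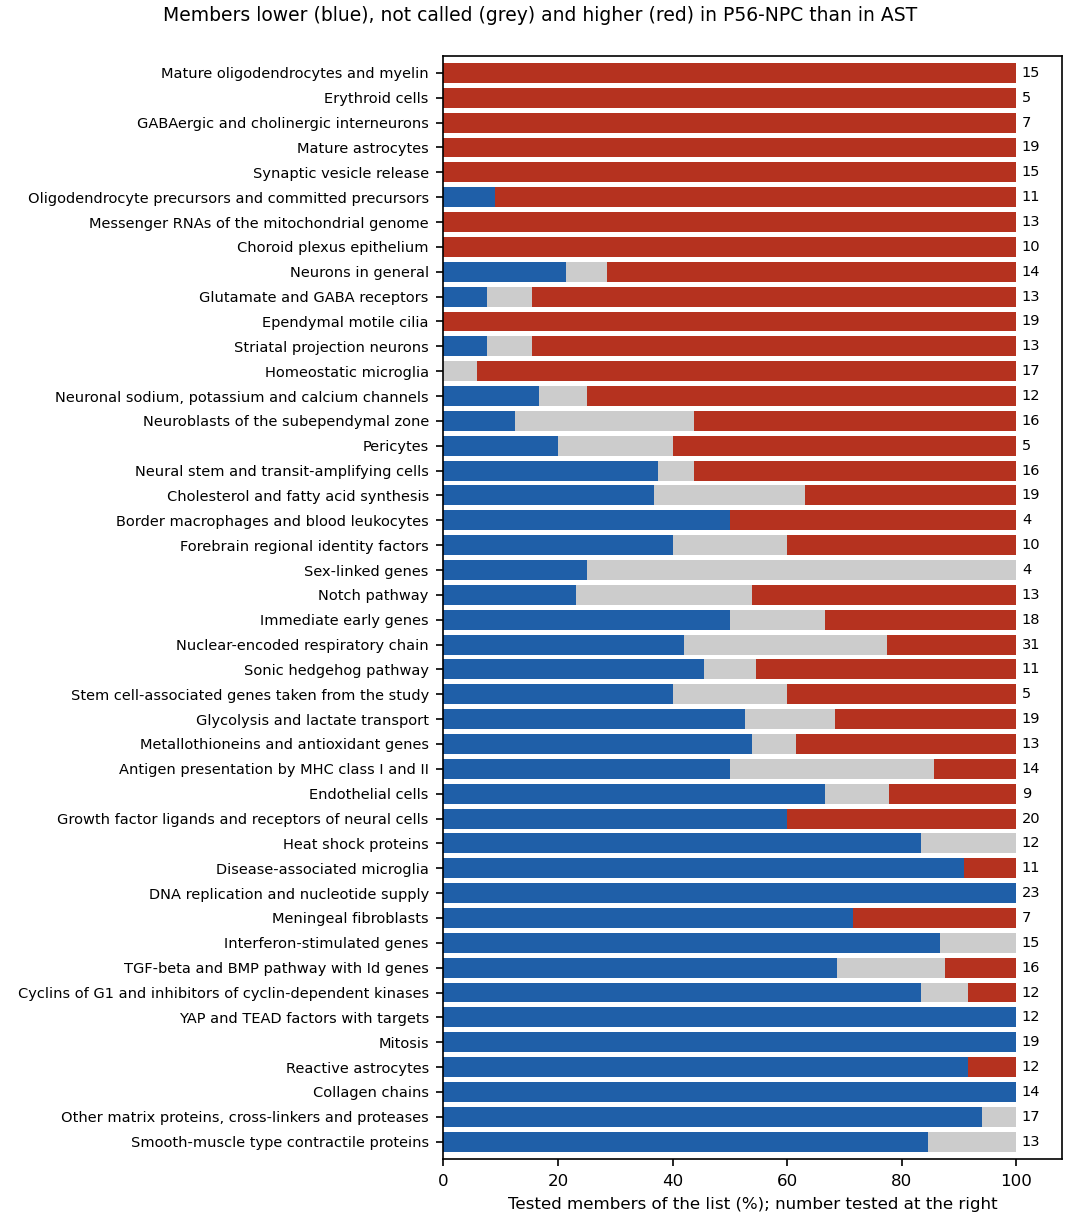
Share (%) of the tested members of each gene list that were higher, not called or lower in P56-NPC relative to AST (limma, adjusted p under 0.05), with the number tested at the right and lists ordered by median log2 fold change. The bars of the myelin, mature astrocyte and ependymal lists, with 15, 19 and 19 members, are higher throughout, and those of replication, mitosis and collagen, with 23, 19 and 14, are lower throughout.

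Every tested gene of mature oligodendrocytes and myelin was higher in P56-NPC, 15 of 15, against 39.1% of all tested genes, with a median log2 fold change of 6.77 (8.02 with genes at 0 in AST set to their bound) against -0.03 over all genes. Mag, an adhesion protein of the innermost myelin wrap, stood at 277, 257 and 279 FPKM against 0.0293, 0.0484 and 0.0661, a log2 fold change of 8.02. Cnp, an enzyme of uncompacted myelin, was also present in AST, at 16.9, 18.6 and 17.1 FPKM against 636, 579.6 and 670.0 in P56-NPC, a log2 fold change of 5.08. Opalin, a late oligodendrocyte membrane protein, had 0 fragments in all AST libraries and stood at 55.3, 47.0 and 57.0 FPKM in P56-NPC, at least 961-fold higher. All members lay apart between the groups, down to Aspa, which breaks down N-acetylaspartate, at 21.7, 17.6 and 22.3 FPKM against 0.12, 0.0994 and 0.181.

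Oligodendrocyte precursor genes were higher in 10 of 11 cases, with a median log2 fold change of 3.16. Pdgfra, the growth factor receptor of precursors, stood at 19.1, 21.0 and 17.1 FPKM against 0.363, 0.305 and 0.451, a log2 fold change of 3.87. Gpr17, a receptor of committed precursors, stood at 34.9, 35.4 and 31.7 FPKM against 0.023, 0.00949 and 0.0207, a log2 fold change of 5.10. The lineage factors Olig1 and Olig2 had log2 fold changes of 2.02 and 1.53, and the proteoglycan Cspg4, which pericytes also carry, one of 0.80. Bmp4, a signal that directs precursors toward an astrocyte fate, was the one lower member, at 2.72, 1.75 and 2.94 FPKM against 14.3, 15.6 and 14.3, a log2 fold change of -2.20.

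Mature astrocyte genes were higher in the suspension and not in the astrocyte culture. All 19 tested members were higher, with a median log2 fold change of 3.52 and summed FPKM of 6549 to 7354 in P56-NPC against 368 to 403 in AST. Slc1a2, the main glutamate transporter, stood at 501, 552 and 505 FPKM against 1.82, 1.57 and 1.76, a log2 fold change of 7.58. The connexin Gjb6 stood at 113, 124 and 105 FPKM against 0, 0 and 0.0201, and Gja1, the other astrocyte connexin, at 83.2, 89.2 and 81.5 against 25.5, 22.6 and 26.4, a log2 fold change of 1.73. The potassium channel Kcnj10 had a log2 fold change of 3.52, the water channel Aqp4 0.98 and the folate enzyme Aldh1l1 0.75. Gfap, the intermediate filament of astrocytes, stood at 207, 198 and 228 FPKM against 31.1, 27.2 and 31.3, a log2 fold change of 2.78. The members thus differed widely among themselves, from 0.75 for Aldh1l1 to 7.58 for Slc1a2.

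Genes listed for reactive astrocytes went the other way, with 11 of 12 lower, against 39.8% of all tested genes, and a median log2 fold change of -3.46. Vim, an intermediate filament, stood at 41.7, 36.0 and 46.6 FPKM against 1926, 2724 and 1908, a log2 fold change of -5.68. Cd44, the receptor for hyaluronan, stood at 0.425, 0.506 and 0.672 FPKM against 104, 102 and 107, a log2 fold change of -6.11. Cp, the copper carrier ceruloplasmin, had a log2 fold change of -1.59. Serpina3n, a secreted protease inhibitor, was the one higher member, at 16.8, 18.9 and 19.1 FPKM against 8.09, 8.65 and 9.60, a log2 fold change of 0.98. Fibroblasts and other dividing cells in culture also express several of these genes.

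General neuronal genes were higher in 10 of 14 cases, with a median log2 fold change of 2.46. Snap25, a fusion protein of synaptic vesicles, stood at 34.4, 36.3 and 30.4 FPKM against 0.0966, 0.0581 and 0.119, a log2 fold change of 4.99. Map2, a microtubule protein of dendrites, had a log2 fold change of 3.31, the neuronal splicing factor Rbfox3 3.16, the calcium sensor Syt1 2.75 and the light neurofilament Nefl 4.45. Tubb3, a neuronal tubulin also used by dividing cells, had the smallest higher value of the list, with 75.4, 85.0 and 69.9 FPKM against 36.0, 51.3 and 34.7, a log2 fold change of 0.92.

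3 neuronal members were lower. Stmn2, a microtubule regulator of growth cones, stood at 18.2, 19.3 and 17.1 FPKM against 48.4, 66.7 and 46.3, a log2 fold change of -1.50. Uchl1, a ubiquitin hydrolase, and Thy1, a surface glycoprotein that fibroblasts share, had log2 fold changes of -1.30 and -0.38. The medium neurofilament Nefm did not pass the test, at 3.46, 3.52 and 2.59 FPKM against 3.19, 2.70 and 2.77 (adjusted p = 0.411).

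Genes of synaptic vesicle release were higher in all 15 tested cases, with a median log2 fold change of 3.19. Syp, a vesicle membrane protein, stood at 19.2, 21.2 and 19.2 FPKM against 0.412, 0.454 and 0.465, a log2 fold change of 3.85. Vamp2, the vesicle partner of Snap25, had a log2 fold change of 3.19, and Bsn and Pclo, which organise release sites, had 2.35 and 0.99. Slc17a7, the vesicular glutamate transporter of cortical neurons, had a log2 fold change of 3.46, and Slc32a1, the vesicular GABA transporter, stood at 20.02, 19.8 and 19.1 FPKM with 1 fragment in AST. Rab3a and Rims1 were below the filter.

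Among glutamate and GABA receptor subunits 11 of 13 were higher, with a median log2 fold change of 1.96. Gria1, an AMPA receptor subunit, stood at 43.3, 61.3 and 31.8 FPKM against 1.19, 1.11 and 1.47, a log2 fold change of 4.32. Gria2 and the obligate NMDA subunit Grin1 had log2 fold changes of 2.48 and 1.96. Gria3, another AMPA subunit, was lower, at 2.29, 2.31 and 1.96 FPKM against 17.7, 13.1 and 16.8, a log2 fold change of -2.39. The NMDA subunits Grin2a and Grin2b were below the filter.

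Voltage-gated and other channels of neurons were higher in 9 of 12 cases, with a median log2 fold change of 1.27. Kcna1, a potassium channel of axons, stood at 17.1, 15.6 and 15.6 FPKM against 0.025, 0.0722 and 0.0338, a log2 fold change of 4.03. The sodium channels Scn2a and Scn8a had log2 fold changes of 0.68 and 1.30. Cacna1a, a presynaptic calcium channel, and Kcnj4, an inward rectifier, were lower at -0.79 and -0.54, and the call of Kcnj4 was lost without any one AST library or P56-NPC replicate 1 (adjusted p = 0.0543 to 0.0861).

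Genes of striatal projection neurons, which lie beside the dissected zone, were higher in 11 of 13 cases, with a median log2 fold change of 1.59. Ppp1r1b, the dopamine-regulated phosphatase inhibitor DARPP-32, stood at 42.8, 53.1 and 38.3 FPKM against 0.143, 0.118 and 0.0184, a log2 fold change of 5.38. The dopamine receptor Drd2 had a log2 fold change of 1.71, the adenosine receptor Adora2a 1.19, and the peptide precursor Tac1, with 3 fragments in AST, 1.29. Penk, the precursor of enkephalins, stood at 9.91, 16.4 and 2.71 FPKM against 1.35, 2.32 and 1.42, a log2 fold change of 1.74. Its call was lost without P56-NPC replicate 1 (adjusted p = 0.0605) or replicate 2 (0.0519). Foxp1, a transcription factor also used outside neurons, was lower at -0.62, Pde10a did not pass the test at 1.66, 2.40 and 1.13 FPKM against 1.75, 1.54 and 1.88, and Drd1 was below the filter.

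All 7 tested interneuron genes were higher, with a median log2 fold change of 3.87. The GABA-synthesising enzymes Gad1 and Gad2 had log2 fold changes of 3.87 and 3.78. Sst, somatostatin, had 0 fragments in AST and stood at 29.4, 36.6 and 32.4 FPKM in P56-NPC, at least 145-fold higher. Pvalb, a calcium-binding protein of fast-spiking cells, had a log2 fold change of 3.58. Npy, a peptide of some interneurons, stood at 8.45, 5.39 and 14.7 FPKM against 3.69, 4.79 and 2.66, a log2 fold change of 1.08, and its call was lost without AST replicate 3 (adjusted p = 0.0562). Vip, Lhx6, Chat and Th were below the filter.

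Of 10 factors that pattern the forebrain 4 were higher and 4 lower, near the 39.1% and 39.8% of all tested genes. Emx1 and Emx2, of the dorsal forebrain, had log2 fold changes of 1.39 and 1.24, Zic1, of the septum and midline, had 2.87, and Neurod6, of cortical excitatory neurons, stood at 0.965, 1.80 and 0.96 FPKM with 0 fragments in AST, at least 16.4-fold higher. Among those lower were Six3 at -1.03, Nkx2-1 at -0.52 and Otx1 at -1.20, all of which act in forebrain development. Lhx2 and Meis1 did not pass the test, at 0.15 and -0.19, and Lhx2 passed at 0.18 without AST replicate 2 (adjusted p = 0.0403).

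Genes of neuroblasts were higher in 9 of 16 cases, with a median log2 fold change of 1.14. Dcx, a microtubule protein of migrating neuroblasts, stood at 3.21, 3.78 and 3.02 FPKM against 0.108, 0.0819 and 0.0596, a log2 fold change of 1.997. Dlx1 and Dlx5, factors that direct GABAergic fate, had log2 fold changes of 3.10 and 1.78, and Sp8 and Sp9, factors of olfactory bulb interneurons, had 1.69 and 2.49. Cd24a, a surface protein shared with ependymal cells, was lower at 44.2, 39.9 and 46.6 FPKM against 107.8, 92.6 and 110.4, and so was the tubulin Tubb2b, at 164, 189.9 and 147 against 336, 378 and 324. Dlx2, Sox11, Sox4, Ncam1 and Meis2 did not pass the test, with log2 fold changes of 0.24, -0.13, -0.19, 0.09 and 0.21. Without P56-NPC replicate 3, Dlx2 passed at 0.48 (adjusted p = 0.0493), and without AST replicate 2, Meis2 passed at 0.28 (0.015).

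Genes of stem and transit-amplifying cells were called in both directions, with 9 of 16 higher, against 39.1% of all tested genes, 6 lower, near the 39.8% of all tested genes, and a median log2 fold change of 0.69. Nes, the intermediate filament nestin, fell furthest, standing at 3.91, 3.48 and 3.90 FPKM in P56-NPC against 209, 183 and 195 in AST, a log2 fold change of -5.37 (SE 0.08). Hes5, a Notch target of stem cells and astrocytes, stood at 19.7, 24.3 and 15.5 FPKM against 0.306, 0.687 and 0.395, a log2 fold change of 3.82, and the orphan receptor Nr2e1 had 0.75. Several higher members, among them Slc1a3 and Sox9, are also in the mature astrocyte list, and the other higher members included Thbs4 and Hopx. The mature astrocyte genes summed to 6549 to 7354 FPKM in P56-NPC against 368 to 403 in AST, and their part in the higher values of this list was not tested.

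Egfr, the receptor of activated stem cells, was lower at 3.42, 4.19 and 3.03 FPKM against 7.58, 6.75 and 7.42, a log2 fold change of -0.87. The lipid-binding protein Fabp7 of radial glia and the adhesion molecule Vcam1 were lower at -2.65 and -1.37. Prom1, the surface marker CD133, and the factor Pax6 were lower at -0.79 and -0.29. Sox2, a factor of neural stem cells and astrocytes, stood at 109, 119 and 94.0 FPKM against 126, 158 and 122, without overlap between the groups, and did not pass the test (log2 fold change -0.33, adjusted p = 0.063). It passed as lower under 6 alternatives, namely library size alone (adjusted p = 0.00143), library size without mitochondrial genes (0.0127), upper-quartile scaling (0.0162), limma-voom on recovered fragments (0.0412), 1 model of all 4 groups (0.0446) and the replicate block (0.032).

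**Figure D3:**
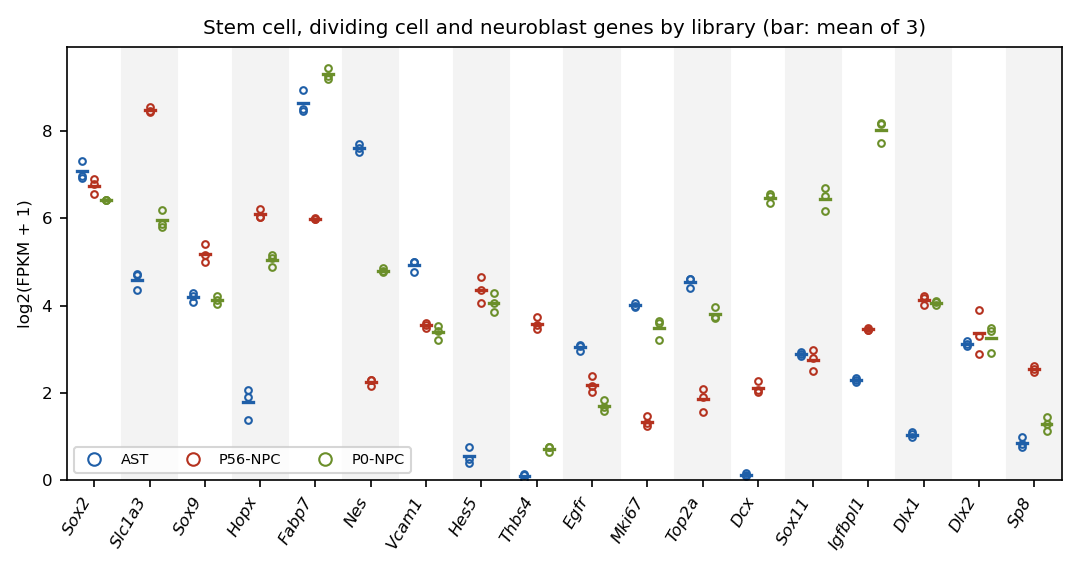
Level on the log2(FPKM + 1) scale of stem cell, dividing cell and neuroblast genes in each AST, P56-NPC and P0-NPC library, 1 point a library, with a bar at the mean of 3. The P56-NPC points lie below AST for Nes (log2 fold change -5.37), above AST for Hes5 (3.82) and near the AST points for Sox2 (-0.33), while P0-NPC lies far above both for Sox11.

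Of 8 stem cell-associated genes taken from the study, Nes among them only as a primer target in its supplement, 5 were tested. Olig2 and Sox10, both factors of the oligodendrocyte lineage, were higher at 1.53 and 5.85, Nes and Pax6 were lower, and Sox2 did not pass. Nanog and Pax3 were below the filter, and Pou5f1 had 0 fragments in every P56-NPC and AST library. How the study chose them is not stated, and since it examined them in its own samples their directions are not independent evidence.

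Between the 2 fresh suspensions, 6115 of 15394 tested genes were higher in P56-NPC than in P0-NPC (39.7%) and 6011 lower (39%), together 12126 or 78.8%. Of the called genes 50.43% were higher with the authors' scaling and 26.73% with library size alone. This comparison shares the P56-NPC libraries with the one above, and the groups differ in age, brain region and preparation at once. The P0-NPC tissue was dissociated with trypsin and spun down, with no strainer or B27 medium described. All 15 myelin genes and all 19 mature astrocyte genes were higher in P56-NPC than in P0-NPC, as were all 17 tested microglia genes. Of the neuroblast genes, 4 were higher and 8 lower, and the part of the myelin and other cell types in these values was not tested. Dcx stood at 80.4, 90.5 and 93.2 FPKM in P0-NPC, a log2 fold change of -4.36 of P56-NPC over P0-NPC, and Sox11 stood at 89.8, 71.0 and 103 FPKM, a log2 fold change of -3.70. Nes stood at 27.9, 26.7 and 26.1 FPKM in P0-NPC, a log2 fold change of -2.55, so both the culture and the newborn hippocampus held more of it than the adult suspension. Sox2 stood at 84.8, 84.4 and 84.3 FPKM in P0-NPC, a log2 fold change of 0.34, which turned to -0.29 with library size alone (adjusted p = 0.0134). Of the endothelial genes, 2 were higher and 13 lower than in P0-NPC.

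Genes of resting microglia, the resident phagocytes of brain, were higher than in AST in 16 of 17 cases, with a median log2 fold change of 1.43. P2ry12, a nucleotide receptor lost on activation, stood at 60.3, 59.98 and 60.3 FPKM against 0.726, 0.523 and 0.761, a log2 fold change of 5.20. Tmem119, Csf1r and Cx3cr1, markers and receptors of microglia, had log2 fold changes of 3.55, 3.17 and 2.35. C1qa, a complement chain, had 1.29. Tyrobp, a signalling adaptor, did not pass, at 52.3, 50.6 and 49.8 FPKM against 40.7, 62.0 and 42.1, but passed at 0.29 without AST replicate 2 (adjusted p = 0.00134). All these genes also had fragments in the AST libraries.

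Genes linked to disease-associated microglia were lower in 10 of 11 cases, with a median log2 fold change of -1.66. Spp1 stood at 1.15, 1.06 and 1.81 FPKM against 235, 307 and 268. Lpl, a lipase, had a log2 fold change of -2.36, Clec7a, a pattern receptor, -0.70, and Gpnmb, a lysosomal glycoprotein, -3.36. Apoe, a lipid carrier that astrocytes also secrete, was the one higher member, at 3664, 3892 and 3777 FPKM against 509.9, 711 and 547, a log2 fold change of 2.69. Several of these genes, such as Lgals3 and Cd63, are expressed by many cultured cell types.

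Of the border macrophage and leukocyte genes, 4 were tested, and with no filter 6 of 12 were higher and 2 lower. In that fit with no filter, 8017 of all 30545 genes were higher and 6732 lower. The calprotectin chains S100a8 and S100a9, of neutrophils, were higher, with S100a8 at 2.57, 2.51 and 1.49 FPKM against 0.258, 0.568 and 0. S100a9 had 0 fragments in AST and 3.31, 5.13 and 3.49 FPKM in P56-NPC, at least 12.8-fold higher. The platelet chemokine Pf4 and Ms4a7, both of border macrophages, were lower at -1.18 and -1.49. The T cell genes Cd3e, Cd4 and Cd8a were below the filter in both groups.

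All 19 tested genes of ependymal cells and their cilia were higher in P56-NPC, with a median log2 fold change of 1.94. Tmem212 stood at 93.4, 82.3 and 114 FPKM with 1 fragment in AST. Ccdc153 stood at 62.7, 51.8 and 67.8 FPKM against 0.146, 0.509 and 0.291, a log2 fold change of 5.55. The dynein light chain Dynlrb2 had a log2 fold change of 4.67, the radial spoke protein Rsph1 1.98 and the dynein heavy chain Dnah5 1.43. Foxj1, the master factor of motile cilia, stood at 63.6, 56.2 and 66.0 FPKM against 42.0, 47.6 and 40.4, a log2 fold change of 0.51, which with library size alone was 0.17 and lost the call (adjusted p = 0.147).

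Choroid plexus genes were higher in all 10 tested cases, with a median log2 fold change of 2.50, and in 1 model of all 4 groups Aqp1 lost its call (adjusted p = 0.0686). After Ttr, the chloride channel protein Clic6 had a log2 fold change of 4.38, the ageing-related hormone co-receptor Kl 3.06, the folate receptor Folr1 2.32, the prolactin receptor Prlr 1.05 and the water channel Aqp1 0.92. Against P0-NPC 3 of the 10 were higher and 1 was lower, against 39.7% and 39% of all genes tested there. With library size alone 1 of 9 was higher and 2 were lower, where of all 15410 genes 3441 were higher and 9432 lower. Ttr stood at 2077, 1452 and 3119.7 FPKM in P56-NPC, with an adjusted p of 0.76 in the main fit against P0-NPC.

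Red blood cell genes were higher in all 5 tested cases, with a median log2 fold change of 5.17 (7.32 with genes at 0 in AST set to their bound). Hbb-bs, an adult beta-globin, had 0 fragments in AST and stood at 87.8, 75.7 and 113 FPKM in P56-NPC. Hba-a1 stood at 253, 220.1 and 353 FPKM, with 1 fragment in AST. Alas2, the haem synthesis enzyme of red cells, stood at 4.48, 4.51 and 5.38 FPKM against 0, 0.0821 and 0.0448. The paired globin genes Hba-a1 and Hba-a2, and Hbb-bs and Hbb-bt, are near-identical copies, so how fragments were split within a pair is uncertain.

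Endothelial genes did not move together, with 2 of 9 higher, 6 lower and a median log2 fold change of -0.50. With no filter 6 of 16 were higher and 6 lower, where of all 30545 genes 8017 were higher and 6732 lower. Cldn5, the claudin of the blood-brain barrier, stood at 1.71, 2.11 and 2.14 FPKM in P56-NPC with 0 fragments in AST, at least 17.3-fold higher. Ocln, another tight junction protein, was higher at 2.43. Cdh5, the endothelial cadherin, was lower, at 0.26, 0.208 and 0.26 FPKM against 2.20, 2.02 and 2.63, and so was the growth factor receptor Kdr, at 0.472, 0.421 and 0.713 against 2.69, 1.81 and 2.87. Pecam1, Flt1 and Tek were below the filter, and Ly6c1 did not pass, at 1.55, 1.34 and 1.48 FPKM against 1.14, 1.56 and 0.706, but passed at 0.36 without AST replicate 2 (adjusted p = 0.0307).

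Of 5 tested pericyte genes, 3 were higher. Rgs5, a regulator of G protein signalling, and the secreted protein Vtn had log2 fold changes of 1.14 and 2.15, while the receptor Pdgfrb was lower at 5.24, 6.37 and 4.65 FPKM against 11.8, 9.32 and 12.2, a log2 fold change of -0.92. Notch3 did not pass in the pericyte list either, at 3.01, 4.02 and 1.93 FPKM against 6.50, 3.04 and 6.13.

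Meningeal fibroblast genes were lower in 5 of 7 cases, with a median log2 fold change of -1.71. The mesenchymal factor Foxc1 stood at 0.0887, 0.0959 and 0.0208 FPKM against 3.95, 4.79 and 3.91, a log2 fold change of -2.28, and Aldh1a2, a retinoic acid synthetase, had -1.41. Ptgds, a prostaglandin synthase abundant in meninges and oligodendrocytes, was higher, at 620.2, 530.0 and 708 FPKM against 2.03, 2.39 and 1.37, a log2 fold change of 7.73. The proteoglycan Dcn was higher at 1.43, 0.416 and 3.18 FPKM against 0.286, 0.237 and 0.221, a log2 fold change of 0.96 (adjusted p = 0.0383). Its call was lost without AST replicate 1, 2 or 3 (adjusted p = 0.0732, 0.079 and 0.0822) or P56-NPC replicate 1 (0.0882).

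Genes of smooth-muscle type contraction were lower in 11 of 13 cases, with a median log2 fold change of -4.06. Tagln, an actin-bundling protein, stood at 0.0869, 0.125 and 0.305 FPKM against 13.7, 17.6 and 8.61, a log2 fold change of -3.56. The light chain Myl9, calponin Cnn1 and the tropomyosins Tpm1 and Tpm2 had log2 fold changes of -4.89, -6.01, -4.39 and -5.11. Actg2, an enteric actin, stood at 0.111, 0.04 and 10.4 FPKM against 7.93, 9.69 and 6.99 and did not pass, but passed as lower, at -3.09, without P56-NPC replicate 3 (adjusted p = 8.89e-06). The intermediate filament Des stood at 0.0767, 0.0996 and 4.11 FPKM against 0.254, 0.197 and 0.0861 and did not pass either. In both, P56-NPC replicate 3 alone lay above 1 FPKM within its group.

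Collagen chains were lower in all 14 tested cases, with a median log2 fold change of -3.82. Col1a1, the main fibrillar chain, stood at 0.632, 0.683 and 1.22 FPKM against 178, 131 and 164, a log2 fold change of -6.43. The basement membrane chains Col4a1 and Col4a2 had log2 fold changes of -4.68 and -3.73, and the fibrillar chains Col1a2, Col3a1 and Col5a1 had -1.93, -1.34 and -4.44. The partners Col1a1 and Col1a2, which form 1 collagen molecule, thus differed by unequal amounts.

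Other matrix genes were lower in 16 of 17 cases, with a median log2 fold change of -3.87. Lox, which crosslinks collagen, stood at 0.0241, 0.013 and 0.0889 FPKM against 103, 87.1 and 95.5, a log2 fold change of -6.53. Fn1 stood at 0.375, 0.4 and 0.587 FPKM against 338, 214 and 347. Sparc, a matrix protein that astrocytes and endothelium make in brain, had a log2 fold change of -1.15, and Postn, of fibroblasts, had -0.95. Timp3, an inhibitor of matrix proteases, did not pass, at 26.7, 31.0 and 23.3 FPKM against 62.2, 26.0 and 61.5, but passed as lower without AST replicate 2, at -1.18 (adjusted p = 0.000129), and with library size alone, at -1.10 (0.0168).

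All 12 tested genes of the YAP and TEAD pathway, which answers to cell spreading and stiffness, were lower, with a median log2 fold change of -2.31. The target Ccn1 stood at 18.7, 14.6 and 21.0 FPKM against 935, 966 and 895, a log2 fold change of -5.62. The target Ankrd1, the coactivators Yap1 and Wwtr1 and the factor Tead1 had log2 fold changes of -2.28, -0.87, -1.83 and -2.33.

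Genes of DNA replication and nucleotide supply were lower in all 23 tested cases, with a median log2 fold change of -1.66. The helicase subunits Mcm2, Mcm3, Mcm4, Mcm5 and Mcm6 had log2 fold changes of -2.21, -2.31, -1.26, -2.04 and -2.18. Mcm3 stood at 2.99, 3.94 and 2.98 FPKM against 19.0, 21.9 and 19.7. The members differed in size, from the polymerase subunit Pola1 at -0.61 to Rrm2, a subunit of ribonucleotide reductase, at -4.58.

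Mitosis genes were lower in all 19 tested cases, with a median log2 fold change of -2.81. Mki67, a coat protein of mitotic chromosomes, stood at 1.48, 1.75 and 1.36 FPKM against 14.9, 15.7 and 14.6, a log2 fold change of -2.67. Top2a, which untangles chromosomes, stood at 2.75, 3.26 and 1.94 FPKM against 23.3, 20.2 and 23.4, a log2 fold change of -2.69. The kinase Cdk1, cyclin B1 (Ccnb1) and the kinase Aurkb had log2 fold changes of -3.96, -3.39 and -2.46.

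Because these 2 lists moved as whole lists, their promoters were read from RefSeq sequences of GRCm38.p6, from 250 bases before to 50 after each gene's start, on both strands. The letters TTTNGCGC, a site of the E2F factors, occurred in 8 of the 18 replication members with a promoter entry (44.4%) and in 373 of 27025 promoters (1.4%). The letters CCAAT, bound by NF-Y, occurred in 13 of 15 mitosis members with an entry (86.7%) and in 10248 of 27025 promoters (37.9%). The first 2 members of each list with a match are shown 5′ to 3′ on the gene's strand, with the matching letters of either strand in capitals, where overlapping matches run together. Mcm3 lies at chr1:20820263-20820562 on the minus strand, Mcm5 at chr8:75109259-75109558 on the plus strand, Mki67 at chr7:135716330-135716629 on the minus strand and Top2a at chr11:99024140-99024439 on the minus strand. A match describes letters only and not a bound site.
Mcm3: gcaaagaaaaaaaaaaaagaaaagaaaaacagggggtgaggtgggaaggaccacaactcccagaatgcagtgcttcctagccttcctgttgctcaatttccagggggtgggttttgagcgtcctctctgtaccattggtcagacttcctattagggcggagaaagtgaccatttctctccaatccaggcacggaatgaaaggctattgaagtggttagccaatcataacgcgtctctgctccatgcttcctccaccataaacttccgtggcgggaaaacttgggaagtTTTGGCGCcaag
Mcm5: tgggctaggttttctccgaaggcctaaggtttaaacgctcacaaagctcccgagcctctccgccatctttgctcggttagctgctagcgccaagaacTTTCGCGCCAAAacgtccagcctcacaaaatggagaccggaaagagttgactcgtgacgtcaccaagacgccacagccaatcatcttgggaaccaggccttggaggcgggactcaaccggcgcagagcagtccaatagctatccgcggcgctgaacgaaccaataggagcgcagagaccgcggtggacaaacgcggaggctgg
Mki67: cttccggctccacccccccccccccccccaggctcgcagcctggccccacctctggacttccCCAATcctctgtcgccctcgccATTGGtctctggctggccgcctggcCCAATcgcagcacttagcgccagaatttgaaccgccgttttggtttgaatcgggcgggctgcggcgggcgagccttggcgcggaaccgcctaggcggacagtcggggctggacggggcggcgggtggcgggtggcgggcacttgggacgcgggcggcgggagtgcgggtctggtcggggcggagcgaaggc
Top2a: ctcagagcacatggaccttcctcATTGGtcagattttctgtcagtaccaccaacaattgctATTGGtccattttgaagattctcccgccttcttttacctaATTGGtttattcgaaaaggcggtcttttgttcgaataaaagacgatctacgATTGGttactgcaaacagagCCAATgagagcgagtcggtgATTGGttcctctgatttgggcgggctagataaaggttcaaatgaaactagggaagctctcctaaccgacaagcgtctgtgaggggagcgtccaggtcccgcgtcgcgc

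The same search was made for 2 other lists. The CArG box, bound by serum response factor, occurred in 1 of 11 contractile members with an entry (9.1%) and in 425 of 27025 promoters (1.6%). The letters GTTGCCA, a half-site of the RFX factors of ciliated cells, occurred in 3 of 16 ependymal members (18.8%) and in 1206 promoters (4.5%).

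Cyclins of G1 and inhibitors of cyclin-dependent kinases were lower in 10 of 12 cases, with a median log2 fold change of -2.27. Ccnd1, cyclin D1, stood at 9.60, 12.6 and 9.10 FPKM against 488, 321 and 474, a log2 fold change of -5.22, and Ccnd2 had -3.90. The inhibitors Cdkn1a, Cdkn2a and Cdkn2b, which rise with stress or long culture, had log2 fold changes of -4.35, -5.42 and -4.17. Cdkn2a stood at 0.197, 0.0532 and 0.155 FPKM against 39.2, 65.5 and 41.9. Cdkn1c, an inhibitor of cells leaving the cycle, was higher, at 7.43, 5.62 and 9.35 FPKM against 0.848, 0.895 and 0.871, a log2 fold change of 2.15. Cdkn1b did not pass, at 23.2, 24.3 and 22.5 FPKM against 21.99, 20.7 and 19.7.

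In the Notch pathway, in which membrane ligands on 1 cell activate receptors on its neighbour, 6 of 13 members were higher, near the 39.1% of all tested genes, and 3 lower, against 39.8%. Under library size alone 7 were lower, against 51.5% of all genes tested that way. Among ligands, Dll1 was higher at 0.99 and Jag1 lower at -1.74. The receptors Notch1, Notch2 and Notch3 did not pass, with log2 fold changes of -0.53, -0.29 and -0.62. Without AST replicate 2 all 3 receptors passed as lower, at -0.79 (adjusted p = 0.00355), -0.48 (0.000325) and -0.91 (0.00842). The targets split, with Hes1 at 7.75, 7.37 and 7.84 FPKM against 49.4, 70.2 and 48.3, a log2 fold change of -2.70, and Hes5 higher as given above. The target Hey1 did not pass, at 18.3, 21.1 and 18.4 FPKM against 21.2, 19.3 and 20.9, and Rbpj, the factor that carries the signal to DNA, was lower at -0.71.

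In the hedgehog pathway the ligand and the targets differed in direction. Shh itself stood at 0.142, 0.306 and 0.128 FPKM in P56-NPC against 53.6, 61.3 and 51.5 in AST, a log2 fold change of -5.57. Gli1, a target and factor of the pathway, stood at 7.55, 8.81 and 6.28 FPKM against 0.0716, 0.0691 and 0, a log2 fold change of 3.02. The receptor and target Ptch1 stood at 17.5, 22.7 and 13.3 FPKM against 3.72, 2.36 and 3.64, a log2 fold change of 2.14. Hhip, a decoy receptor, had 1.74, Gli2 0.99 and the co-receptor Gas1 0.50. The transducer Smo and the repressor Gli3 were lower at -0.34 and -0.42, as were the co-receptors Cdon at -1.03 and Boc at -1.27. The call of Smo was lost without AST replicate 1 or 3 or P56-NPC replicate 1 or 3, with adjusted p between 0.0869 and 0.1. Sufu did not pass, at 3.40, 3.42 and 3.19 FPKM against 4.40, 3.30 and 4.20, but passed as lower, at -0.29, without AST replicate 2 (adjusted p = 0.00578).

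TGF-beta and BMP genes were lower in 11 of 16 cases, with a median log2 fold change of -2.19. The BMP targets Id1 and Id3 stood lower, Id1 at 14.5, 13.9 and 13.7 FPKM against 288, 433 and 289, a log2 fold change of -4.46, and Id3 at -3.68. Id4, a relative abundant in astrocytes, was higher, at 106, 97.3 and 110.3 FPKM against 35.0, 41.8 and 35.3, a log2 fold change of 1.46, and the receptor Tgfbr1 was higher at 1.27. The receptor Tgfbr2 was lower at -0.37, a call lost without AST replicate 1 (adjusted p = 0.0501) or P56-NPC replicate 2 (0.0508). The ligands Tgfb1 and Tgfb2 and the target Id2 did not pass, at -0.19, -0.15 and -0.04, and Tgfb2 passed at -0.25 without AST replicate 2 (adjusted p = 0.0222).

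Of 20 growth factors and their receptors 8 were higher, near the 39.1% of all tested genes, and 12 were lower, against 39.8%, with a median log2 fold change of -1.05. Ligands named first were mostly lower, with Fgf2 at -0.90, Igf1 at -2.39 and Bdnf at -2.88. Vegfa, which guides vessels, was higher at 0.55, and so was Fgf1 at 2.71. With library size alone Vegfa stood at 0.22 and lost the call (adjusted p = 0.0584). Among receptors Fgfr1 was lower at -1.20 and Fgfr2 and Fgfr3 higher at 0.86 and 3.19. The neurotrophin receptors Ntrk2 and Ntrk3 were higher at 3.42 and 1.10, and Ngfr, the shared low-affinity receptor, was lower at -1.99. The neuregulin receptors Erbb3 and Erbb4 were higher at 3.54 and 2.25, and their ligand Nrg1 was lower at -2.42.

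All 13 protein-coding genes of mitochondrial DNA were higher, with a median log2 fold change of 2.58. The cytochrome oxidase subunit mt-Co1 had a log2 fold change of 2.37, the complex I subunit mt-Nd1 2.43, and mt-Cytb 2.37. The subunits mt-Atp6, mt-Co2 and mt-Nd4 had 3.93, 3.13 and 2.47. Without the filter on low values, 9 of the 13 were called, and mt-Co1, mt-Nd1, mt-Cytb and mt-Nd6 lost the call (adjusted p = 0.382, 0.138, 0.171 and 0.0786). Nuclear copies of mitochondrial genes can share their reads.

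Of 31 nuclear genes of the respiratory chain 7 were higher, against 39.1% of all tested genes, 13 were lower, near the 39.8% of all tested genes, and 11 were not called, with a median log2 fold change of -0.17. Without AST replicate 2, 11 were higher, against 40.8% of all genes in that fit. Without P56-NPC replicate 1 or without replicate 2, 9 were lower, against 36.5% and 37.3% of all genes in those fits. With library size alone 3 were higher and 19 lower, against 31.2% and 51.5% of all genes tested that way. Cox4i1 stood at 599, 634 and 586 FPKM against 295, 428 and 287, a log2 fold change of 0.87, and Sdha had 0.60. Ndufs1 and Cox6a1 were higher at 0.22 and 0.64, and both calls were lost when any of 4 or more single libraries was left out. Without any one of the 3 P56-NPC libraries Ndufs1 had an adjusted p of 0.0634 to 0.0744 and Cox6a1 one of 0.0525 to 0.0591, without AST replicate 3 they had 0.0599 and 0.0607, and without AST replicate 1 Cox6a1 had 0.0605. Uqcrc1 was lower at -0.41, and Atp5a1 did not pass at -0.12. With library size alone Ndufs1 stood at -0.10.

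Of 19 glycolysis genes 10 were lower and 6 higher, not far from the 39.8% and 39.1% of all tested genes. Without any one P56-NPC library 8 were lower, against 36.5% to 37.8% of all genes in those fits. Ldha, which makes lactate, stood at 39.2, 40.9 and 42.1 FPKM against 239.5, 221 and 240.1, a log2 fold change of -2.49, while Ldhb, its counterpart, was higher at 0.78. Hk2, an inducible hexokinase, was lower at -2.49 and Hk1, the brain form, did not pass at 0.16. Aldoc, the brain aldolase, was higher at 1116, 1254 and 1131 FPKM against 12.8, 14.2 and 12.1, and Aldoa was lower at -0.43, a call lost without any one of the 3 P56-NPC libraries (adjusted p = 0.106, 0.0922 and 0.0818). The phosphofructokinases also split, with Pfkp lower at -1.06, Pfkl and Pfkm higher at 0.56 and 2.56. Pkm, the last kinase of the pathway, was lower at -1.12, while Gpi1 and the glucose carrier Slc2a1 were higher at 0.26 and 0.80. The call of Gpi1 was lost without any one library but AST replicate 2 (adjusted p = 0.0536 to 0.113), and with library size alone Gpi1 stood at -0.08. The regulator Pfkfb3 and the lactate carrier Slc16a1 did not pass at 0.10 and -0.27, and Slc16a1 passed at -0.35 without AST replicate 2 (adjusted p = 0.0219).

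Of 19 genes of sterol and fatty acid synthesis, 7 were higher and 7 lower, shares near the 39.1% and 39.8% of all tested genes, and with library size alone 4 were higher, against 31.2% of all genes tested that way. Scd1, a fatty acid desaturase, stood at 325, 371 and 322 FPKM against 56.1, 44.3 and 60.5, a log2 fold change of 2.65, and Fasn, the fatty acid synthase, was higher at 0.96. Sqle, an enzyme of sterol synthesis, was lower at -1.01. Hmgcs1 was higher at 0.30 and stood at -0.04 with library size alone. Idi1, Sc5d, Insig1 and Mvd did not pass, with log2 fold changes of 0.35, 0.04, -0.04 and 0.21, and Mvd passed at 0.31 without P56-NPC replicate 3 (adjusted p = 0.0367).

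The metallothionein Mt1 was higher at 1144, 1076 and 1317 FPKM against 259.6, 414 and 243, a log2 fold change of 1.98, and Mt2 at 1.53. Mt3, the brain form, was higher at 0.74, a call lost without AST replicate 1 or 3 (adjusted p = 0.112 and 0.111) or any one P56-NPC library (0.0799 to 0.101). Of all 13 metallothionein and antioxidant genes 5 were higher and 7 lower, not far from the 39.1% and 39.8% of all tested genes. Hmox1, haem oxygenase, was lower at 7.47, 6.48 and 8.43 FPKM against 404, 526 and 423, a log2 fold change of -5.74. Nqo1 and Gclm had log2 fold changes of -1.59 and -0.44. The superoxide dismutase Sod2 and the catalase Cat were higher at 0.64 and 0.88, and Sod1 did not pass at -0.17.

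Immediate early genes, which respond within minutes to activity or handling, were higher in 6 of 18 cases and lower in 9, not far from the 39.1% and 39.8% of all tested genes, with a median log2 fold change of -0.14. Under library size alone 2 were higher, against 31.2% of all genes tested that way. Arc, of active synapses, stood at 15.9, 18.0 and 14.95 FPKM against 0.839, 0.839 and 0.845, a log2 fold change of 3.23, and Egr3 and Jund were also higher, at 2.12 and 0.27. Fos stood at 50.1, 43.0 and 52.1 FPKM against 38.1, 42.7 and 39.7, a log2 fold change of 0.26, and Egr1 and Nr4a1 had 0.31 and 0.30. With library size alone these 3 stood at -0.07, -0.02 and -0.01, and Jund at -0.02. Jun and Atf3 were lower at -0.30 and -0.76, and Junb, Fosb and Zfp36 did not pass, at 0.09, 0.31 and 0.01, and Fosb passed at 0.48 without P56-NPC replicate 2 (adjusted p = 0.0214). The call of Fos was lost without AST replicate 1 or 3 or P56-NPC replicate 1 or 3, with adjusted p of 0.0949 to 0.124. That of Jun was lost without P56-NPC replicate 1 (adjusted p = 0.0752) or 2 (0.11).

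Heat shock genes were lower in 10 of 12 cases, with a median log2 fold change of -1.34. Hspa5, the chaperone of the endoplasmic reticulum, stood at 59.8, 52.5 and 63.8 FPKM against 237, 241 and 236, a log2 fold change of -2.005, and the constitutive Hspa8 had -1.60. The co-chaperone Dnajb1 had -1.39 and the inducible Hspa1b -0.40. Hspa1a, a near-identical copy of Hspa1b, and Hsph1 did not pass, at 0.13 and 0.06, and Hspa1a passed at 0.24 without AST replicate 2 (adjusted p = 0.0281).

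Interferon-stimulated genes were lower in 13 of 15 cases, with a median log2 fold change of -1.85. Isg15, a ubiquitin-like protein, stood at 1.97, 1.42 and 6.39 FPKM against 136, 229 and 133, a log2 fold change of -5.43. Bst2, which tethers virus particles, stood at 10.6, 7.66 and 15.7 FPKM against 399, 531 and 365, a log2 fold change of -5.17. The antiviral proteins Ifit1 and Ifitm3 and the factor Irf7 had -3.38, -4.02 and -2.005. Rsad2 and Mx2 did not pass, at -0.22 and 0.10, and Rsad2 passed at -0.35 without AST replicate 2 (adjusted p = 0.0264).

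Antigen presentation genes were lower in 7 of 14 cases, not far from the 39.8% of all tested genes, and higher in 2, against 39.1%. Without P56-NPC replicate 3, 10 of 13 tested were lower, against 37.8% of all genes in that fit. Without replicate 1 or 2, 6 of 14 were lower, against 36.5% and 37.3%. The class I light chain B2m stood at 234, 223 and 313 FPKM against 848, 1184 and 859, a log2 fold change of -1.90, and the peptide transporter Tap1 and proteasome subunit Psmb8 had -2.13 and -0.82. The class I heavy chain H2-D1 was lower at -0.99 and H2-K1 did not pass at -0.12, passing at -0.28 without P56-NPC replicate 3 (adjusted p = 0.0346). These heavy chains are similar in sequence, so their split is uncertain. Among the class II genes Cd74 was higher at 6.31, 3.45 and 18.5 FPKM against 0.924, 0.617 and 0.802, a log2 fold change of 2.27, and H2-Ab1 at 1.35, a call lost without any one AST library (adjusted p = 0.0569 to 0.0636). The class II chains H2-Aa and H2-Eb1, the proteasome subunit Psmb9 and H2-T23 did not pass, at 1.11, 1.01, -0.43 and -0.19. Without P56-NPC replicate 2, H2-Aa and H2-Eb1 passed at 1.59 (adjusted p = 0.0152) and 1.49 (0.0351). Without P56-NPC replicate 3, Psmb9 and H2-T23 passed at -0.60 (0.007) and -0.40 (0.0433).

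Xist, the RNA of the silenced X chromosome, was below the filter in both groups, and transcripts of the Y chromosome were present in both. Ddx3y, Kdm5d and Uty did not pass, at 0.07, 0.24 and -0.14, but Kdm5d passed as higher, at 0.43, with limma-voom on recovered fragments (adjusted p = 0.0385). Eif2s3y was lower at 11.7, 10.5 and 12.6 FPKM against 15.1, 19.8 and 14.4, a log2 fold change of -0.46, and its call was lost without P56-NPC replicate 2 (adjusted p = 0.0562).

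Classes of genes also differed in how often they were higher. Of 12909 tested protein-coding genes, 38.93% were higher and 41.77% lower. Of 798 long non-coding RNAs, 62.16% were higher and 19.55% lower. Of 759 processed pseudogenes, 12.12% were higher and 44.53% lower, and these share sequence with their parent genes. In the quartile of protein-coding genes with the shortest genomic span 33.27% were higher, and in the quartile with the longest span 48.31% were. By exonic length of protein-coding genes the shares were 33.61% in the shortest quartile and 43.5% in the longest. With a log2 fold change beyond 1 required, the shares by span were 19.64% and 27.3%, and those by exonic length were 21.72% and 21.52%, nearly equal. Of 34 tested replication-dependent histone genes, 8 were higher and 16 lower.

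The 3 P56-NPC libraries differed from each other along the same cell type lists. Across all tested genes replicates 1, 2 and 3 were the highest of their group in 24.5%, 40.4% and 35.1% of genes and the lowest in 27.9%, 34% and 38.1%. Replicate 2 was the highest for 14 of 14 neuronal genes, 13 of 13 striatal genes, 13 of 15 synaptic genes and 17 of 19 mature astrocyte genes. It was also the highest for 16 of 19 mitosis genes. Replicate 3 was the highest for 14 of 15 myelin genes, 17 of 19 ependymal genes, 9 of 10 choroid plexus genes and 5 of 5 red blood cell genes. It was also the highest for 11 of 13 contractile genes and 15 of 15 interferon-stimulated genes, and replicate 2 was the lowest for all 15 of the latter. These counts are descriptions of 3 libraries, with no test.

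**Figure D4:**
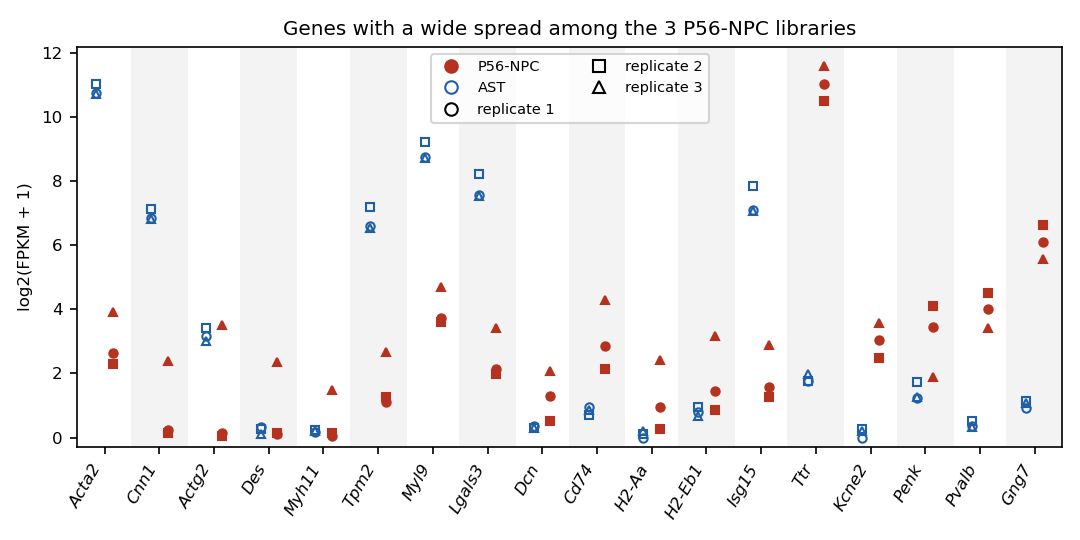
Level on the log2(FPKM + 1) scale of genes with a wide spread among the 3 P56-NPC libraries (filled) beside AST (open), with the symbol giving the replicate. P56-NPC replicate 3 is the highest of its group for Acta2, at 14.1 FPKM, and for Ttr, and replicate 2 is the highest for Penk, Pvalb and Gng7.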

How the data were processed

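The authors isolated total RNA with Trizol, made libraries with the NEBNext Ultra kit and sequenced them as paired ends on an Illumina HiSeq. The deposited table gives FPKM for 55862 genes in 12 libraries. The submitters' processing notes name Bowtie 0.12.2 and mm8, but 54985 of the 55240 gene identifiers shared with GENCODE M21 carry the same position in GRCm38, so positions are given in that build. The counting tool, its use of strand and the roles of these tools are not given in the sources used here.

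Multiplied by gene length, every checked FPKM (267383 values under 2000 fragments) was a whole number of fragments within 0.01 (100%), so fragments were recovered. Counts of 0 and floors of 3 fragments cover counting error only. P56-NPC and AST, and P56-NPC and P0-NPC, were compared gene by gene with limma 3.58.1 in R 4.3.3 (lmFit, eBayes with trend) on log2(FPKM + 1), over genes with a mean of at least 1 FPKM in either group. The threshold was 0.05 after Benjamini-Hochberg adjustment across every gene tested. The fit was also run on simulated data in which few genes changed between otherwise equal groups. The groups here differ in most genes, so that run does not show how the fit behaves on them.

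Genes and lists were chosen with earlier results of these data known. Named were the first 6 tested genes of each list, members that went against their list or were not called where these were 5 or fewer, and the 12 largest differences each way among protein-coding genes called without overlap and with a mean of at least 20 FPKM in the higher group. Some genes that this rule names are not reported here. Further members named for a value, such as Sst, Gfap, Mag, Opalin, Ldhb, Rrm2 and the plotted genes of wide spread among P56-NPC libraries, were chosen after their values were seen. Alternatives were other scalings, filters, a pseudocount of 0.1, limma-voom on recovered fragments, 1 model of all 4 groups, the replicate number as a block, stricter calls and leaving out each library. Promoters came from RefSeq (GRCm38.p6).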

Additional observations from a re-analysis of the deposited data

How the results depend on the processing

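Of 578 tested list members, limma-voom on recovered fragments gave 571 the same direction and side of the threshold, a pseudocount of 0.1 577, 1 model of all 4 groups 564, the fit with no filter 560 and upper-quartile scaling 549. Library size alone did so for 523 of the 569 that passed the filter with it, and library size without mitochondrial genes for 546 of 571. Without any one library 554 to 566 did so. Limma-voom called 5952 genes higher and 6013 lower. Leaving out 1 library gave 5598 to 6175 genes higher than in AST and 5551 to 6331 lower, 5804 to 6022 higher than in P0-NPC and 5568 to 5829 lower, and a difference in mitochondrial share of fragments of 13.12 to 14.0 percentage points, which was 29.36 as a share of FPKM.

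A minimum mean of 5 FPKM, which leaves fewer genes to test, gave 3354 genes higher than in AST and, against P0-NPC, 3943 higher and 3773 lower. Requiring a log2 fold change beyond 1 gave 3341 higher and 2754 lower than in AST, and 2653 higher and 2037 lower than in P0-NPC. Library size alone gave 3441 higher and 9432 lower than in P0-NPC, and, among the genes named in the text, turned the direction of Fos (-0.074), Egr1 (-0.021), Nr4a1 (-0.0090), Ndufs1 (-0.098), Hmgcs1 (-0.042), Jund (-0.018) and Gpi1 (-0.079), by the shift it gives all genes. It ended the calls of Foxj1, Vegfa, Npy (0.78, adjusted p = 0.051), Cox6a1 (0.30, 0.145) and Mt3 (0.39, 0.173), and called Sox2, Sox4, Sox11, Notch1, Notch2, Notch3, Tgfb1, Tgfb2, Id2, Hey1, Sufu, Meis1, Insig1, Sc5d, Slc16a1, Sod1, Rsad2, Psmb9, H2-K1, Uty, Actg2 and Timp3 lower. Same-numbered P56-NPC and AST libraries did not deviate together (r = 0.0481, -0.113 and -0.102 across genes). For same-numbered P56-NPC and P0-NPC libraries r was 0.0187, 0.115 and 0.052. The labels do not say whether the numbers mark pairs or batches, and these values cannot settle it. With the replicate number as a block 5760 genes were higher and 5827 lower than in AST, and 6103 and 5973 than in P0-NPC. Among list members Sox2, Slc16a1 and H2-Aa then gained a call, while Fos, Jun, Ndufs1, Smo and Lss, of the sterol list, lost theirs. Depth put 3 fragments at 0.148 to 0.187 FPKM in a gene of 1 kb, and values under that rest on fewer fragments.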
